A study of Homo sapiens with 4 samples.

Results

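The mRNA levels of 10 genes of the mitotic spindle, cytokinesis and proliferation were followed in U87 glioma cells with and without a short hairpin RNA against PTPRN. The genes are MKI67, TPX2, TROAP, PRC1, BIRC5, CDCA8, ECT2, ANLN, SHCBP1 and PRR11, which are 10 of the 27940 gene symbols in the tables. They were chosen by function and by their FPKM, which were lower in the hairpin libraries of these same data. Their difference between the groups is therefore a description and carries no test. Each of the 10 has a single row with status OK in all 4 libraries, and all 10 passed the filter on low values.

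U87 is an established human glioma cell line. The control cells (shNC, 2 libraries) were infected with lentivirus made from the empty FUGW-H1 vector. The series' design text calls the control H1-RFP (WT), so which control vector was used is uncertain. The hairpin cells (shPTPRN3, 2 libraries) were infected with lentivirus carrying 1 hairpin, shPTPRN3, so no second hairpin sequence was compared. All cells grew in DMEM with serum and antibiotics. The design text speaks of biological replicates without saying that they were separate cultures, so p-values here measure only the spread between these libraries, part of which may be technical.

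The tables hold no read totals. The width of the deposited confidence intervals of single-exon genes gave an estimated depth of 12.2 to 29.7 M fragments per library, highest in shPTPRN3 replicate 1. PTPRN, a receptor-type phosphatase family protein of dense-core vesicles, was the target of the hairpin: its scaled FPKM were 27.6 and 19.8 in the control libraries against 4.96 and 3.62 in the hairpin libraries, so 18.1% of the control level was left (limma, adjusted p = 0.0594). Scaled FPKM are the deposited fragments per kilobase of transcript and per M mapped fragments, divided by 1 factor per library. Of the glioma markers, VIM and CD44 were abundant (VIM from 1193 to 2098, CD44 from 84.6 to 97.7 scaled FPKM), while GFAP was listed at 0 in all 4 libraries and S100B, SOX2 and OLIG2 stayed under 1. Of the markers of other cell types, EPCAM, CDH1, PTPRC, PECAM1, ALB and HBB all stayed under 1 in every library. The 4 glioma markers that could be tested went both ways and none passed limma's adjusted threshold, while NES (-0.94) was lower and FN1 (1.70) higher at an unadjusted p under 0.05. FN1 rested mostly on shPTPRN3 replicate 1, at 341 scaled FPKM against 91.6 in replicate 2 and 43.2 and 66.8 in shNC.

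Cell division needs a bipolar spindle, a midzone of overlapping microtubules between the separating chromosomes, and a ring of actin and myosin that closes between the daughter cells. TPX2 activates the Aurora A kinase and nucleates spindle microtubules. The chromosomal passenger complex, with BIRC5 (survivin) and CDCA8 (borealin), corrects attachments and then moves to the midzone, where PRC1 bundles antiparallel microtubules. There ECT2 activates the GTPase RhoA, and anillin (ANLN) ties the ring to the membrane. Most of these mRNAs are made mainly in G2 and mitosis, and MKI67 is the antigen by which pathologists count cycling cells. Promoters of such genes often carry a cell cycle genes homology region (CHR), with the core TTTGAA, and CCAAT boxes, which are bound by the factor NF-Y.

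The promoters are shown because motifs of this kind are known from genes of mitosis. The 10 genes share that function, so a high share of promoters with the motif is tied to how they were chosen and is given as a description. RefSeq promoters (GRCh38.p14, from 250 bases before the start to 50 after it) were matched for 7 of the 10 genes, all but TPX2, BIRC5 and TROAP. RefSeq gives several starts for 5191 symbols, of the 7 only for ECT2, and the start with the lowest coordinate was used for each symbol. Every one of the 7 held the exact hexamer TTTGAA. The copy on the gene's own strand nearest the start is in capitals below, 5′ to 3′ on that strand.
MKI67: tcttcgttttcgTTTGAAttgggcgggcgc
PRC1: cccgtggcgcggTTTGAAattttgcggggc
CDCA8: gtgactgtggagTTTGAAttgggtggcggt
ANLN: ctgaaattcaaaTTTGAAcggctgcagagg
PRR11: caaggatttaatTTTGAAtttttctttatg
SHCBP1: cgtccgcggaaaTTTGAAatggctgacggg
ECT2: agcagcttagttTTTGAAtcggttgtgg

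These windows lie at chr10:128126435-128126464 (minus strand) for MKI67, chr15:90994538-90994567 (minus) for PRC1 and chr1:37692481-37692510 (plus) for CDCA8. Those of ANLN, PRR11 and ECT2 are at chr7:36389830-36389859, chr17:59155723-59155752 and chr3:172750748-172750775, all on the plus strand, and that of SHCBP1 is at chr16:46621348-46621377 (minus). In 5 genes the hexamer began before the start: 29 bases before it in MKI67, 23 in CDCA8, 20 in PRC1 and in ANLN, and 11 in PRR11. In the other two it lay after the start, beginning at base 15 in SHCBP1 and base 35 in ECT2. ECT2 had a further copy 115 bases before its start and MKI67 one at 47. For ECT2 the start in the deposited tables (172750685) differs from the RefSeq start used (172750726), and from it the copies begin at base 76 and 74 bases before. For the other 6 genes both starts are the same. Searched on both strands, TTTGAA was found in 7 of 7 of these promoters, against 15.6% of all 27305 promoters and 9.97% of the 8963 promoters of tested genes. On the gene's strand and starting within 50 bases of the start, a window chosen after the positions were seen, it was found in 7 of 7 from the RefSeq starts, against 1.99% of tested genes, and in 6 of 7 from the starts in the tables, without ECT2.

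CCAAT, searched on both strands, was found in 6 of the 7, all but ANLN, against 36.5% of the promoters of tested genes. PRR11, CDCA8 and ECT2 held 3 copies each. Both motifs together were found in 6 of 7, against 4.34%. In MKI67 the 120 bases before the start (chr10:128126424-128126543, minus strand) held both TTTGAA copies and 2 reverse CCAAT boxes, in capitals, and the last TTTGAA shares its final base with the last box.
MKI67: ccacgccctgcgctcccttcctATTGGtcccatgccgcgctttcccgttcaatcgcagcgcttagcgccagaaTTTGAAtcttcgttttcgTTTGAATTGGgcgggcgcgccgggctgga
The matches are exact strings in a reference sequence, and whether any factor bound there in these cells was not measured.

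**Figure D1:**
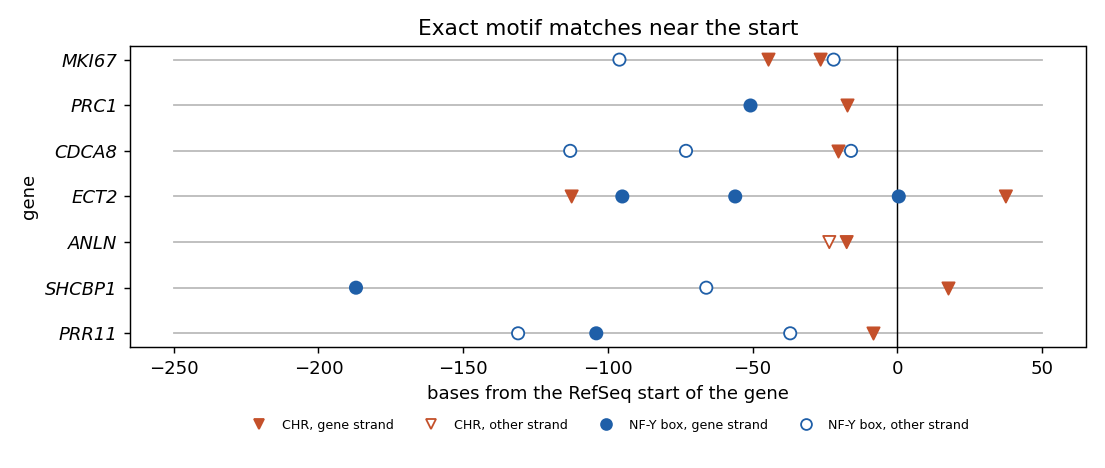
Positions of exact TTTGAA (CHR, triangles) and CCAAT (NF-Y box, circles) matches in the 7 RefSeq promoters, in bases from the gene's start, filled on the gene's strand and open on the other strand. A filled triangle sits within 50 bases of the RefSeq start used in all 7 genes (for ECT2 at base 35, which is base 76 from the start in the deposited tables), and ANLN has no circle.

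In the control cells the 10 genes were expressed at moderate levels. Group means ran from 36.6 scaled FPKM for TPX2 down to 8.70 for SHCBP1, in the order TPX2, BIRC5, TROAP, MKI67, PRC1, ANLN, CDCA8, ECT2, PRR11 and SHCBP1. Between neighbours in this order the 2 library values overlapped everywhere except between PRC1 and ANLN, so the order of most neighbours is not resolved. Genes farther apart in it can be separate: TPX2 had 34.7 and 38.5, and SHCBP1 7.99 and 9.42. FPKM are per length, but values of long and short transcripts shifted between libraries, so levels of genes as unlike in length as MKI67 and PRR11 compare only roughly. In shPTPRN3 the means ran from 5.46 (ECT2) and 5.20 (TPX2) down to 0.713 (SHCBP1). Because the RNA is from bulk cultures, fewer dividing cells and less of each mRNA per cell cannot be told apart.

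**Figure D2:**
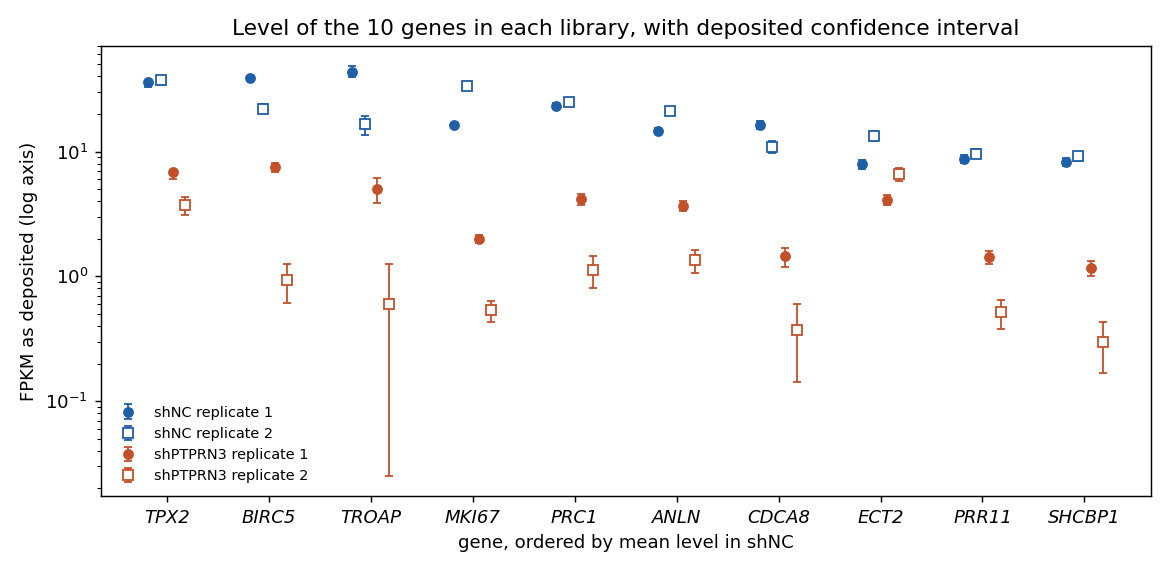
FPKM as deposited (log axis) of the 10 genes in each library, with the deposited confidence interval as bars, blue for shNC and orange for shPTPRN3, circles for replicate 1 and squares for replicate 2. The orange points lie below the blue ones for every gene, with the smallest gap in ECT2 and the widest interval in TROAP in shPTPRN3 replicate 2.

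MKI67, whose protein coats mitotic chromosomes, is encoded on the minus strand of chromosome 10 (128096661 to 128126423, hg38 as for all genes here). Control replicates 1 and 2 held 15.6 and 34.3 scaled FPKM of its mRNA, and the hairpin libraries 1.90 and 0.566. Of the 10 it had the lowest share left, 4.94% of the control mean, or 20.2-fold lower. The log2 difference was -3.51 with a standard error of 0.48, on the scale log2(scaled FPKM + 1) used for every difference below, and was the 11th lowest of 11394 genes. The 2 control libraries themselves differed 2.19-fold.

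Among the spindle assembly factors, TPX2 (chromosome 20, 31739290 to 31801800, plus strand) had scaled FPKM of 34.7 and 38.5 in shNC against 6.46 and 3.94 with the hairpin. The control libraries were close together and both hairpin libraries far below them, at a log2 difference of -2.63 (SE 0.34). TROAP, which encodes tastin, a protein of the spindle poles first known from cell adhesion, is on the plus strand of chromosome 12 (49323255 to 49331731). It had 42.2 and 16.9 in shNC and 4.74 and 0.636 in shPTPRN3, a log2 difference of -3.18 (SE 0.66). Its replicates differed 2.49-fold in shNC and 7.46-fold in shPTPRN3, and the deposited interval of the lowest library reached from 0.0253 to 1.25 FPKM.

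Both genes of the chromosomal passenger complex had hairpin values below the control values. BIRC5 (chromosome 17, 78214253 to 78225635, plus strand) had scaled FPKM of 37.1 and 22.7 in shNC against 7.11 and 0.989 with the hairpin, a log2 difference of -2.90 (SE 0.65). CDCA8 (chromosome 1, 37692516 to 37709719, plus strand) had 15.7 and 11.2 against 1.37 and 0.395, a difference of -2.97 (SE 0.38). Both were higher in replicate 1 than in replicate 2 in each group. By group means 13.5% of BIRC5 and 6.56% of CDCA8 was left, and with a pseudocount of 0.1 the log2 differences were -3.38 and -3.97. The difference between the genes was not tested.

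PRC1 (chromosome 15, 90966043 to 90994535, minus strand), the bundler of midzone microtubules, had scaled FPKM of 22.4 and 25.6 in shNC against 3.96 and 1.196 with the hairpin, a log2 difference of -2.92 (SE 0.44). The antisense gene PRC1-AS1 overlaps 22256 bases of it and was listed at 0 in all 4 libraries. With the strand setting of the counting not given, reads of the 2 genes cannot be told apart with certainty. The same holds for TROAP, which LOC101927267 overlaps over 1322 bases (listed at 0 in all libraries but shPTPRN3 replicate 2, at 0.0317). It also holds for ANLN, which KIAA0895 overlaps over 496 bases (listed at 0 in both control libraries and at 1.59 and 2.14 in shPTPRN3).

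The 2 genes of cytokinesis had unlike values, a difference that was not tested. ANLN (chromosome 7, 36389862 to 36453791, plus strand) had scaled FPKM of 14.0 and 21.8 in shNC against 3.49 and 1.43 with the hairpin, a log2 difference of -2.48 (SE 0.41). ECT2 (chromosome 3, 172750685 to 172821474, plus strand) had 7.65 and 13.8 in shNC but 3.90 and 7.01 in shPTPRN3, a difference of only -0.85 (SE 0.41). Its groups almost touched, at 7.65 in the lower control and 7.01 in the higher hairpin library, and 51.0% of the control mean was left. In the order of all genes ECT2 stood 972nd from the lowest, while the other 9 stood between 11th and 77th.

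SHCBP1 (chromosome 16, 46578593 to 46621379, minus strand) encodes an adaptor that joins the centralspindlin complex at the midbody, the bridge that remains between daughter cells. Its scaled FPKM were 7.99 and 9.42 in shNC against 1.11 and 0.316 with the hairpin, a log2 difference of -2.54 (SE 0.35). PRR11 (chromosome 17, 59155746 to 59206709, plus strand), a proline-rich protein of cell-cycle progression, had 8.43 and 9.89 against 1.36 and 0.548, a difference of -2.41 (SE 0.34). These 2 genes had the lowest control levels and among the tightest control pairs, 1.18-fold and 1.17-fold apart. In shPTPRN3 they were 3.51-fold and 2.49-fold apart.

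Over the 10 genes the median log2 difference was -2.77, against -0.01 over all genes tested. Both hairpin values lay below both control values for all 10, as they did for 23.1% of tested genes. The deposited intervals of both hairpin libraries lay below those of both control libraries for 9 of the 10, the exception being ECT2, against 11.9% of genes with a single row. These counts restate the choice of the genes and nothing is read from them. Set out by replicate number, 8.73% (CDCA8) to 24.9% (ANLN) of the control level was left in the libraries numbered 1 for 9 genes, and 1.65% (MKI67) to 10.3% (TPX2) in those numbered 2. ECT2 had 51.0% and 50.9%.

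**Figure D3:**
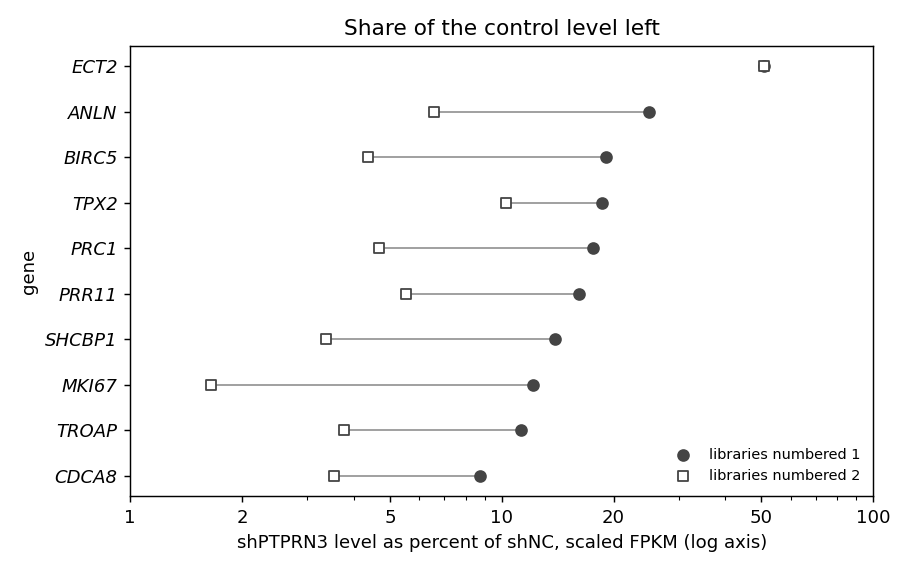
Level in shPTPRN3 as a percent of shNC (scaled FPKM, log axis) within the libraries numbered 1 (filled) and numbered 2 (open) for each gene. The open squares lie to the left of the filled circles for 9 genes, while those of ECT2 coincide near 51%.

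The genes were not chosen by the difference between 2 libraries of the same group, but the choice used the FPKM of these same libraries. A very low value in a hairpin library favours being chosen, and the other tested genes were not picked for a fall. The values here and beside genes of like length are therefore a description. In shPTPRN3, replicate 2 was below replicate 1 for 9 of the 10 genes, against 51.3% of all genes tested, with a median log2 difference between the replicates of -0.83 against -0.02. With a pseudocount of 0.1 the median of the 10 was -1.56. The gap was not particular to them. Of the lists of other division genes given below, replicate 2 was lower for 13 of 14 proliferation markers (median -0.95). It was lower for 22 of 32 spindle assembly genes (-0.43) and 6 of 8 passenger and central spindle genes (-0.26). For contractile ring genes it was 11 of 19 (-0.07), and for midbody and ESCRT genes 9 of 21 (0.09). As a ratio of scaled FPKM, replicate 1 was 7.46-fold above replicate 2 for TROAP and 7.18-fold for BIRC5, and between 1.64-fold (TPX2) and 3.51-fold (SHCBP1) for the other 7. ECT2 was 1.80-fold higher in replicate 2. In shNC, replicate 2 was above replicate 1 for 7 of the 10, against 50% of all genes, with a range from 1.09 (MKI67) to -1.27 (TROAP). Deposited intervals of the 2 hairpin libraries were apart for 10 of 10 genes (63.1% of all genes with a single row). Those of the 2 control libraries were apart for 6 of 10 (64.9%), with TPX2, PRC1, SHCBP1 and PRR11 overlapping.

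Transcript length moved with the difference between replicates across all genes, and its part in the values of the 10 genes was not tested beyond the comparison with genes of like length. Over 10484 tested genes with a coding transcript in GENCODE 29, Spearman's rho between length and the replicate difference was 0.71 in shNC and 0.43 in shPTPRN3, a description across genes that share the same 2 libraries. MKI67 has the longest transcript of the 10, at 12678 bases, and the others range from 2332 (PRR11) to 4787 (ANLN). In shNC, tested genes within 20% of its length had a median of 0.75, and 74.5% of them lay below MKI67. In shPTPRN3, the same genes had a median of 0.32, while MKI67 was at -0.89, below all but 0.912% of them. For BIRC5, TROAP, PRC1 and ANLN in shPTPRN3, 0.473%, 0.599%, 1.29% and 2.57% of the genes of like length were lower. For TPX2, CDCA8, SHCBP1 and PRR11 it was 9.41% to 19.6%. ECT2 lay above 93.3% of the genes of its length in shPTPRN3 and above 91.3% in shNC. PTPRN was lower in replicate 2 than in replicate 1 of both groups (3.62 against 4.96 scaled FPKM in shPTPRN3, 19.8 against 27.6 in shNC). Its part in these differences was not tested.

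**Figure D4:**
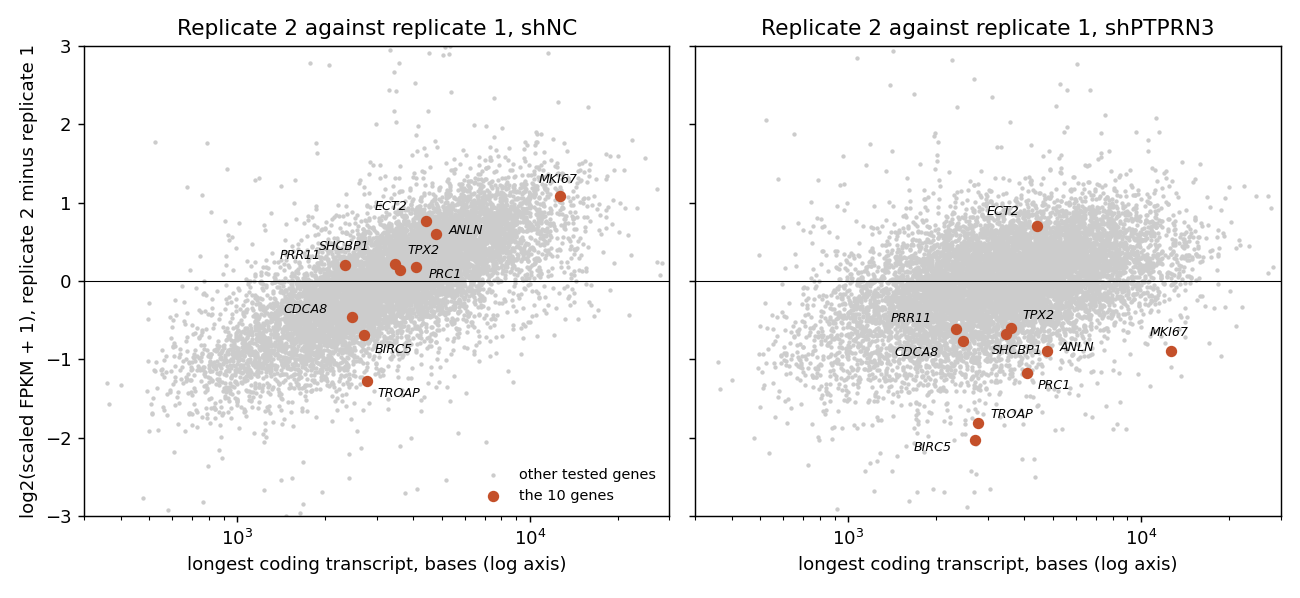
Replicate 2 minus replicate 1 on the log2(scaled FPKM + 1) scale against the length of the longest coding transcript (bases, log axis), for shNC (left) and shPTPRN3 (right), with the 10 genes in orange and other tested genes in grey. In shPTPRN3 all named genes but ECT2 lie below 0, and 50 (shNC) and 40 (shPTPRN3) genes fall outside the axes.

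Other genes of division, listed by function, were then read from the fit over all genes. The lists were written with earlier results of these data known, so their direction is not independent evidence. By limma with Benjamini-Hochberg adjustment, 2 of 94 tested genes fell and none rose, against 0.342% and 0.079% of all genes. At an unadjusted p under 0.05, 46 were lower and 1 higher, against 7.79% and 5.66% of all genes. With genes listed at 0 in any library left out, 35 of 93 fell and none rose, against 1.59% and 0.377%. The 2 that fell, KIF20A and CDK1, lost the call on FPKM as deposited, on TPM, without either shNC library or without shPTPRN3 replicate 2, and 22 genes fell without shPTPRN3 replicate 1.

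The chromosomal passenger and central spindle genes were lower as a list, with a median log2 difference of -1.85 over 8 tested genes, and both hairpin values lay below both control values for 8 of 8, against 23.1% of tested genes. The kinesin gene KIF20A fell (limma, adjusted p = 0.0361), from 13.2 and 11.01 scaled FPKM in shNC to 1.04 in shPTPRN3 replicate 1, and it was listed at 0 in replicate 2. AURKB, the kinase that BIRC5 and CDCA8 target, had 48.7 and 21.8 against 7.45 and 0.729 (limma, adjusted p = 0.133). INCENP, the scaffold of the same complex, had 9.15 and 15.7 against 3.07 and 5.59, a difference of -1.33. The kinesin gene KIF20B had a difference of -1.50. KIF4A, the motor that PRC1 recruits, stood at -2.40, and the centralspindlin genes KIF23 and RACGAP1, partners of SHCBP1 and ECT2, at -1.88 and -1.83. With genes listed at 0 left out, 5 of 7 fell: AURKB, KIF23, RACGAP1, KIF4A and KIF14.

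Spindle assembly genes had a median log2 difference of -1.63 over 32 tested genes, and both hairpin values lay below both control values for 25 of 32. None passed the adjusted threshold by limma, 21 were lower at an unadjusted p under 0.05, and 17 fell with genes listed at 0 left out. The largest differences were those of the kinase PLK1 (-3.39, from 69.1 and 48.0 to 9.52 and 1.995 scaled FPKM), the microtubule depolymerase KIF2C (-2.63) and TACC3 (-2.62), followed by HMMR, NUSAP1 and SPAG5 (-2.45, -2.45 and -2.31). AURKA, the kinase that TPX2 activates, had -1.81 and kept more of its level than TPX2 in both hairpin libraries, 13.5 and 13.8 against 56.5 and 44.4 in shNC. The nucleation genes TUBG1 and NEDD1 had the values nearest 0, at -0.13 and -0.15.

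Genes of the ring and of abscission had medians near 0. Contractile ring genes had a median of 0.01 over 19 tested genes and midbody and ESCRT genes a median of 0.14 over 21. Leaving out shNC replicate 1 moved them to -0.19 and 0.28, and leaving out shNC replicate 2 moved the midbody median to 0.02. Both hairpin values lay below both control values for 5 of 19 ring and 2 of 21 midbody and ESCRT genes, against 23.1% of tested genes. They lay above both control values for 1 and 8 genes, against 21.5%. None of either list passed the adjusted threshold by limma. At an unadjusted p under 0.05, 2 ring genes were lower, and 1 midbody gene was lower and 1, CHMP2B, higher. The lowest were ARHGAP11A (-2.62), a RhoA regulator whose reads may be shared with its near-identical copy ARHGAP11B, and CEP55 (-2.35), the midbody scaffold that calls in ESCRT. These genes both fell when genes listed at 0 were left out. The ring formin DIAPH3 had -1.33, the myosin light chain gene MYL12A -0.84 and the kinase gene CIT -0.44, while CD2AP and ROCK1 had 0.42 and 0.38. RHOA, the GTPase that ECT2 activates, had scaled FPKM of 186 and 180 in shNC against 194 and 190 with the hairpin, and SEPTIN9 and MYL12B had 0.01 and -0.03. Among the ESCRT genes VPS37A (1.09), CHMP2B (0.98) and SPAST (0.81) had the highest values, CHMP6 and IST1 had -0.65 and 0.51, and TSG101 and ZFYVE19 were nearest 0, at -0.03 and 0.03. The value of VPS37A rested mostly on shPTPRN3 replicate 2, at 27.6 scaled FPKM against 9.63 in replicate 1 and 6.68 and 7.79 in shNC.

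Other proliferation markers had a median of -2.22 over 14 tested genes, with both hairpin values below both control values for 14 of 14, against 23.1% of tested genes. CDK1 fell (limma, adjusted p = 0.0361), from 30.3 and 20.1 scaled FPKM to 2.21 and 0.411. CCNB1, CCNB2, MCM7, TOP2A and MCM5 had -2.87, -2.85, -2.68, -2.48 and -2.44. PCNA, which also serves in DNA repair, and TYMS had the smallest differences, -1.15 and -1.26. With genes listed at 0 left out, 11 of 14 fell.

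**Figure D5:**
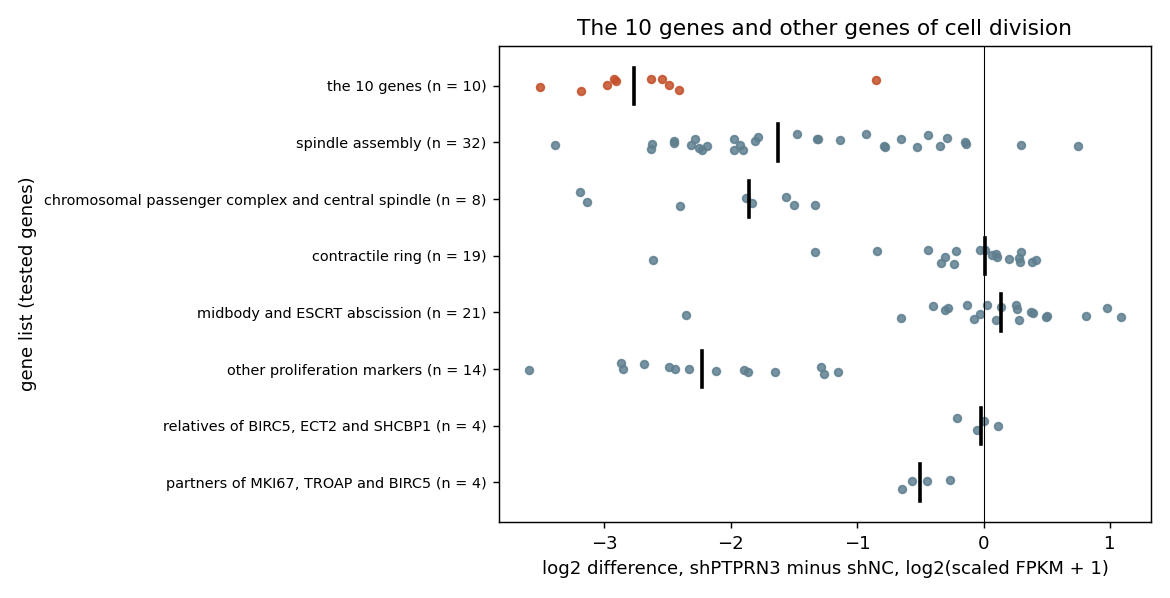
Log2 difference of shPTPRN3 minus shNC, on the log2(scaled FPKM + 1) scale, for the 10 genes (orange) and tested genes of 7 lists (grey), with the median of each as a black bar. The medians of the contractile ring and of the midbody and ESCRT list lie at 0.01 and 0.14, and those of the spindle, passenger and proliferation lists between -1.63 and -2.22.

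The shares of promoters with the 2 motifs varied between the lists. TTTGAA, on either strand, was found in 18 of 30 spindle assembly promoters and in 5 of 7 of the passenger and central spindle list. It was found in 2 of 18 contractile ring and 2 of 16 midbody and ESCRT promoters, against 9.97% of tested genes. Of the proliferation markers, several of which act in DNA replication, 3 of 12 held it. CCAAT, on either strand, was found in 17 of 30 spindle assembly, 7 of 7 passenger and central spindle and 9 of 12 proliferation marker promoters. It was found in 8 of 18 contractile ring and 7 of 16 midbody and ESCRT promoters, against 36.5% of tested genes. Both motifs together were found in 14 of 30, 5 of 7, 3 of 12, 1 of 18 and 1 of 16, in the same order of lists, against 4.34%. These are counts of exact matches with no test.

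Relatives and partners of the 10 genes were read in the same way. Of the family of inhibitors of apoptosis to which BIRC5 belongs, BIRC2, XIAP, BIRC6 and NAIP had -0.21, 0.11, 0.01 and -0.05, and none passed limma's test, adjusted or unadjusted. BIRC3 and BIRC7 were too low to test. The paralogues ECT2L and SHCBP1L were listed at 0 in all libraries. Of the partner genes, NIFK, which binds the MKI67 protein, had -0.57, and BYSL and TRIP6, genes of tastin's partners in adhesion, had -0.26 and -0.65. XPO1, the export receptor of survivin, had -0.45, and none of these 4 passed either. TRO, also listed among the partners, was too low to test, with means of 0.918 scaled FPKM in shNC and 0.921 in shPTPRN3.

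Head-to-head neighbours, whose starts lie within 1000 bases of a start of the 10 genes on the other strand, were compared by their values. SKA2, a spindle and kinetochore gene 230 bases from PRR11 in GENCODE, had scaled FPKM of 14.4 and 11.99 in shNC against 6.43 and 6.54 with the hairpin, a difference of -0.92 (limma, adjusted p = 0.260). C1orf109, 169 bases from CDCA8, had 5.90 and 6.27 against 4.79 and 6.32, a difference of -0.12 (limma, adjusted p = 0.914). KIAA0895, which overlaps 496 bases of ANLN on the other strand, was listed at 0 in both control libraries and at 1.59 and 2.14 in shPTPRN3, too low to test. The differences between neighbours were not tested.

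The genes whose 4 library values ran most like the mean profile of the 10 were FOXM1, TRIP13, NDC80, NEK2, CDCA5, MCM7, HMMR and KIF4A. Likeness was the root mean square difference of centred log2 values over 4 libraries, among 11117 other genes never listed at 0. Because the 10 were chosen for their fall, the genes nearest their mean profile have a like fall by construction. The log2 differences of these 8 ran from -2.70 (CDCA5) to -2.40 (KIF4A), and shared regulation was not tested. FOXM1, a transcription factor of G2 and mitotic genes, was nearest at 0.0592, with scaled FPKM of 37.9 and 41.4 in shNC against 8.66 and 3.81 with the hairpin. KIF4A, the eighth, was at 0.15. Of the 10 genes themselves SHCBP1 (0.0968) and TPX2 (0.101) lay nearest the mean profile, while TROAP (0.641) and ECT2 (1.08) lay farthest.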

How the data were processed

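Libraries came from a stranded mRNA kit, according to the labels' protocols. FastQC 0.72, Cufflinks 2.2.1.2, STAR 2.6.0b-1 and the build hg38 are named, with no roles, in the submitters' processing notes. For the annotation and the strand setting: not given in the sources used here. What the authors deposited is FPKM with a confidence interval and a status per gene row, 33646 rows for each library. The 651 rows lacking status OK in some library were dropped, FPKM were summed by symbol, and each library was divided by a median-ratio factor (0.943 to 1.05, from 9988 genes).

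The limma fit (version 3.58.1, R 4.3.3; eBayes with trend, two-sided, 2 residual degrees of freedom) used log2(scaled FPKM + 1) of 11394 genes whose mean deposited FPKM was at least 1, PTPRN being kept in any case. Benjamini-Hochberg adjusted values under 0.05 were called. Tested on simulated data, the fit called large differences far more often than small ones, so a gene that missed the threshold is not shown to be unchanged. The simulated errors were independent between genes and libraries, unlike the replicate differences here, so the rate of missed genes in these data was not measured. In 267 tested genes some library is listed at 0, which can be a failed estimate. The 10 genes and the lists were chosen with earlier results of these data known. Named from each list were the called genes, up to 6 with the largest differences and the 2 with the smallest, besides the head-to-head neighbours and the 8 genes with the most similar profile. AURKA, RHOA and genes printed outside this rule were chosen after their values were seen. Alternatives covered scaling, pseudocount, filter, listed zeros, row status, the variance model, a replicate block and leaving out each library. Joins and plots used Python 3.11.15, pandas 2.3.3, numpy 2.4.6 and matplotlib 3.10.9.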

Additional observations from a re-analysis of the deposited data

How the results depend on the processing

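All 10 genes kept a negative log2 difference under each of the 15 alternatives run in which they were tested, with a median from -3.38 to -2.24, and SHCBP1 was below the stricter filter. The genes were chosen for their fall, and both hairpin values lay below both control values for all 10. Leaving out a library, the variance model, a block or a filter could therefore not turn the sign. Calls depended strongly on the settings. Genes called lower and higher by limma over all genes numbered 39 and 9, and cell division genes called lower numbered 2. The first count became 23 for unscaled FPKM, 20 for TPM and 16 when 0.1 was the pseudocount. It was 0 without a filter (2163 genes then had an unadjusted p under 0.05), 5 for genes averaging 5 FPKM or more, 177 once genes listed at 0 were dropped, 19 for eBayes without trend and 127 for robust eBayes. The higher count was 0 without a filter, 3 for genes averaging 5 FPKM or more, 42 once genes listed at 0 were dropped and 33 for robust eBayes. Division genes called lower were 0 on deposited FPKM, TPM, the 0.1 pseudocount, no filter, the mean of 5 and eBayes without trend (35 to 47 at an unadjusted p under 0.05), 35 with genes listed at 0 left out and 27 for robust eBayes. Leaving out 1 library gave 21 (without shPTPRN3 replicate 2) to 144 (without shPTPRN3 replicate 1) lower and 5 to 34 higher genes, and 0 to 22 division genes lower (22 without shPTPRN3 replicate 1, 0 without any of the others). With the replicate number as a block, 1212 genes were lower and 956 higher, with 49 division genes lower and 4 higher. The labels do not say that a number marks a shared culture or batch. Replicate differences of the 2 groups correlated with r = 0.519 over genes. SKA2 passed the threshold only under that block. The cause of these shifts was not tested. In shPTPRN3 replicate 2 the half-width of the interval reached 102% of the value for TROAP, at 0.600 FPKM as deposited. It was 61.4% for CDCA8 at 0.373 and 44.2% for SHCBP1 at 0.298, so the width did not follow the level alone. The part of depth in these widths was not tested.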
